A study of Rattus norvegicus with 8 samples.

Results

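Chaperones, protein disulfide isomerases, prolyl isomerases and the stress genes that accompany them were described in rat liver after D3T, a dithiolethione given by mouth that is known to induce detoxification enzymes. The members were chosen by name alone: probe sets matched to a single gene symbol of the heat shock (Hspa, Hspb, Hspd, Hspe, Hsph, Hsp90), Dnaj, Cct, Pdia, Fkbp and Ppi families, together with Canx, Calr, P4hb, Ddit3, Atf4, Xbp1, Herpud1 and Asns. This gave 92 probe sets for 49 genes, of 4736 genes with a probe set of their own on the array. Of these 49, 26 had more than 1 probe set. A further 14 probe sets were matched to several genes, at least 1 of them with such a name, and were not counted. They included every probe set of the cytosolic chaperone genes Hspa8 and Hsp90aa1 and of the isomerase gene Ppia. Atf4, Xbp1, Herpud1 and Fkbp5 were not analysed here.

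Newly made proteins reach their shape with the help of chaperones, which differ by compartment. In the cytosol, Hsp70 proteins bind unfolded stretches, J proteins (the Dnaj family) hand them their clients, Hsp110 proteins such as Hsph1 exchange their nucleotide, and the ring-shaped chaperonin folds actin and tubulin. In the endoplasmic reticulum, where the liver folds the plasma proteins it secretes, Hspa5 (BiP) and Hsp90b1 bind chains, calnexin (Canx) and calreticulin (Calr) hold glycoproteins, and the Pdia family forms disulfide bonds. Mitochondria use Hspa9 and the Hspd1 and Hspe1 ring. Cells that face unfolded proteins are known to raise cytosolic chaperones through heat shock factor, and reticulum chaperones through the unfolded protein response, whose later arm induces Ddit3.

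RNA came from snap-frozen whole liver of male Fischer 344 rats on AIN 76A chow, with an age of 6 given without a unit. The 4 Liver_D3T rats were gavaged with 0.3 mmol D3T per kg body weight in saturated sucrose, once on each of days 1, 3 and 5. The 4 Liver_Control rats, called vehicle here, received 0.2 ml of saturated sucrose, and the days are named for all of them except replicate 2. Each rat had 1 Affymetrix rat genome array, and values are deposited MAS5 signals, 1 intensity per probe set, where a probe set is a group of short probes for 1 transcript. Signals of different probe sets are not compared, because each has its own brightness. The number of arrays limits the precision, and 59 control probe sets were left out.

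The labelled tissue was borne out by the level of hepatocyte genes, with albumin (Alb) at 39143 ± 8877 in vehicle and 53452 ± 8971 after D3T (SD, n = 4). Of 17 listed hepatocyte genes, 15 were on the array and all of these were tested. By the brightest probe set of each, 9 were positive and 6 negative. Alb did not pass an adjusted p of 0.05 (0.46 on the log2 scale, adjusted p = 0.106, limma). Fgb alone did, 1.74-fold lower after D3T (adjusted p = 0.0126, limma). The D3T livers carried the known response, with the quinone reductase gene Nqo1 at 1.78 and the glutathione transferase gene Gstp1 at 4.90 on the log2 scale, D3T minus vehicle (adjusted p = 0.00115 and 6.37e-07, limma). RNA quality moved with treatment: the beta-actin 3'/5' signal ratio ran from 1.45 to 1.59 in vehicle and from 1.17 to 1.47 after D3T, with only D3T replicate 3 inside the vehicle range. With that ratio as a covariate Nqo1 too missed the threshold (adjusted p = 0.0802), while Gstp1 passed (0.000233). Markers of other cell types also differed in range. Summed signals of 6 of 11 listed endothelial genes were 1410 to 1725 in vehicle and 980.0 to 1219 after D3T, and those of 7 of 13 macrophage genes 5320 to 6079 against 4170 to 5177, with Itgam at the floor on at least 4 arrays. Among the 5 macrophage genes tested, C1qb was 1.73-fold lower and Cd14 1.74-fold higher (adjusted p = 0.00919 and 0.0105, limma). Lyz2, Clec4f and C1qc, at -0.74, -0.48 and 0.08 on the log2 scale, did not pass. Of the 5 endothelial genes tested, Fcgr2b was 1.88-fold and Lyve1 1.74-fold lower (adjusted p = 0.0258 and 0.0474, limma). Flt1, Pecam1 and Kdr, at 0.03, -0.13 and -0.32 on the log2 scale, did not pass. Summed signals of 5 of 8 red cell genes were 15004 to 20676 in vehicle against 10649 to 14447 after D3T. Of the 4 tested, Hbb was at -0.51, Hbb-b1 at -0.45, Alas2 at -0.13 and Slc4a1 at 0.33, and 0 passed. The sums of 10 of 12 lymphocyte genes were 888 to 981 against 1130 to 1300. Cd3d and Prf1 were at the floor on at least 4 arrays. For 8 of 10 stellate cell genes the sums were 2677 to 4065 against 2105 to 2831, and for 4 of 6 bile duct genes 296 to 474 against 418 to 523. By limma 1 of the 6 stellate cell genes tested passed, lower after D3T (16.7%, against 9.56% of all genes). Each sum mostly follows the brightest genes of its list. Their part in the results was not tested, and in whole liver fewer cells of a type and less RNA per cell cannot be told apart.

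Of the 49 genes, 40 had a probe set among the brighter 60% that was tested. Each gene was represented by its brightest tested probe set over all 8 arrays. Hsph1, Dnaja4, Cct6a, Canx and Pdia4 fell by 1.59-fold to 1.93-fold, and Hspd1, the mitochondrial chaperonin, rose 1.43-fold. These 6 calls at an adjusted p under 0.05 (limma, Benjamini-Hochberg over all 5244 probe sets tested) are 15% of the 40, where 9.56% of all 3150 genes tested passed. For lower calls alone the figures were 5 of 40 against 5.84% of all genes, and for higher calls 1 of 40 against 3.71%, so lower calls outnumbered higher ones over all genes too (184 and 117). The median log2 fold change was 0.16 over the 40 and 0.03 over all genes, with 27 positive and 13 negative values among the 40 and 1633 and 1517 over all genes. An unadjusted p under 0.05, given for compartments from here on, was reached by 19 of the 40 and by 936 of all 3150. By arrays, 7 of the 40 had all 4 D3T signals below all 4 vehicle signals (11.4% of all genes) and 3 had them all above (7.97%). With 1 array left out the count of calls ran from 1, without vehicle replicate 3 or 4, to 6, without vehicle replicate 2. It was 2 without vehicle replicate 1, D3T replicate 1 or D3T replicate 4. Calls over all 5244 probe sets moved too, from 240, without vehicle replicate 3, to 695, without vehicle replicate 2. With all 8 arrays they were 560. With each array's actin 3'/5' ratio as a covariate, limma called 0 of the 40, and 5 had an unadjusted p under 0.05. That fit called only 35 of all 5244 probe sets, and 751 of them had an unadjusted p under 0.05. With so few calls anywhere, 0 of 40 does not set these genes apart from the rest. The counts also moved with the choice of probe set, a setting tried only once these values were known. With the brightest probe set over the vehicle arrays alone, another one stood for Hsp90b1, Fkbp2, Fkbp4 and Hspb1, and 8 of the 40 were called, 7 of them lower (20% against 9.65% of all genes chosen that way), with Hsp90b1 and Fkbp2 among the lower genes and a median of 0.079. With the brightest over the D3T arrays alone, 6 were called (15% against 9.49%).

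**Figure D1:**
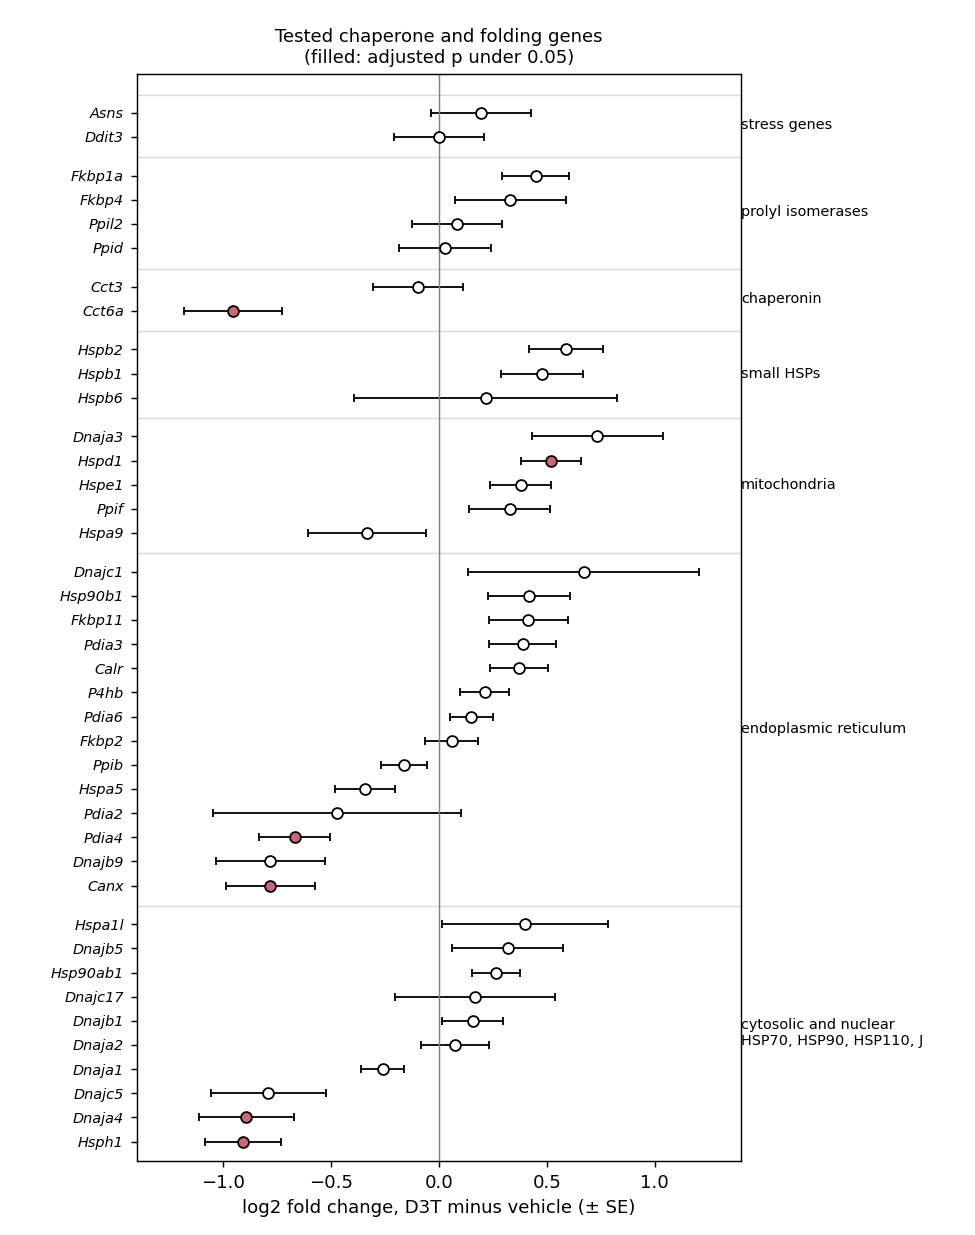
Log2 fold change (horizontal axis, D3T minus vehicle, with its SE from limma) of each of the 40 tested genes, 1 row per gene, grouped by compartment. Filled points passed an adjusted p of 0.05: Cct6a, Hsph1, Dnaja4, Canx and Pdia4 on the negative side, from -0.95 to -0.67, and Hspd1 at 0.52.

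In the endoplasmic reticulum, calnexin and the disulfide isomerase Pdia4 were called lower, 2 of the 14 genes tested there against 5.84% of all genes. None was called higher, against 3.71%. The group held 16 genes, 8 of the 14 tested had positive and 6 negative values, and their median was 0.11. Canx encodes the membrane-bound lectin chaperone of glycoproteins. Its brightest probe set read 1943, 1474, 2530 and 2308 in vehicle replicates 1 to 4 and 1268, 827, 1378 and 1327 in D3T replicates 1 to 4. Every D3T array lay below every vehicle array, D3T replicate 2 lowest of all. The fall was 1.72-fold (-0.78 ± 0.21 on the log2 scale, SE; adjusted p = 0.0368). Another probe set of Canx fell further, from 1887, 1514, 2489 and 1593 to 751, 638, 709 and 795, a 2.54-fold difference (adjusted p = 0.00109) that passed in all 20 alternative fits that tested it, the actin covariate included (adjusted p = 0.0228). Still another fell 1.88-fold (adjusted p = 0.0105). Those at -0.49 and 0.12 did not pass. For the brightest probe set the call was lost without vehicle replicate 1, 3 or 4 or D3T replicate 1, 2 or 4 (adjusted p from 0.059 to 0.106), and with the actin covariate (0.276), no filter (0.115) or no intensity trend (0.0787).

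Calreticulin, the soluble partner of calnexin, did not pass by any of its probe sets. The brightest Calr probe set read 7554, 6645, 6258 and 5555 in vehicle and 8933, 9015, 6743 and 8961 after D3T. Only D3T replicate 3 lay within the vehicle range, and the log2 fold change of 0.37 ± 0.13 did not pass (adjusted p = 0.102), though it did without D3T replicate 3 (0.0459). Its other probe sets had values of -0.22 and -0.056, neither of which passed. Hspa5, the Hsp70 of the reticulum and a common marker of stress there, had 3352, 4112, 4349 and 3476 in vehicle and 2980, 3620, 3026 and 2472 after D3T at its brightest probe set, with overlapping groups and -0.34 ± 0.14 on the log2 scale (adjusted p = 0.136). A dimmer probe set of Hspa5, whose name marks an incomplete probe design, read 1013, 794, 1316 and 666 in vehicle and 401, 289, 497 and 343 after D3T. There the groups were apart and the signal fell 2.44-fold (adjusted p = 0.00825), in 19 of 20 alternative fits but not with the actin covariate (0.192). With the mean of both probe sets the gene passed at -0.82 (adjusted p = 0.00931).

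Hsp90b1, the Hsp90 of the reticulum, gave opposite readings. Its brightest probe set went from 1078, 1865, 1536 and 1439 to 2051, 2018, 1456 and 2354, overlapping, at 0.42 ± 0.19 (adjusted p = 0.171), a sign that turned with the actin covariate (-0.049) and with the mean of its probe sets (-0.20). The second probe set went from 1684, 1107, 1976 and 1609 to 922, 947, 815 and 699, apart, and fell 1.86-fold (adjusted p = 0.0144), and passed in 18 of 20 alternative fits, but not with the actin covariate (0.254). Its remaining tested one, at -0.12, did not pass. Among 31 probe sets of reticulum genes, 28 were tested, 7 were lower and 0 higher, or 25% called where 10.7% of all probe sets passed (6.48% lower). The 7 include 3 of Canx, and probe sets of the same gene are not independent. By genes, 14.3% of the 14 were called, against 9.56% of all genes. Unadjusted, 7 of the 14 genes had a p under 0.05, as did 936 of 3150 over all genes.

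**Figure D2:**
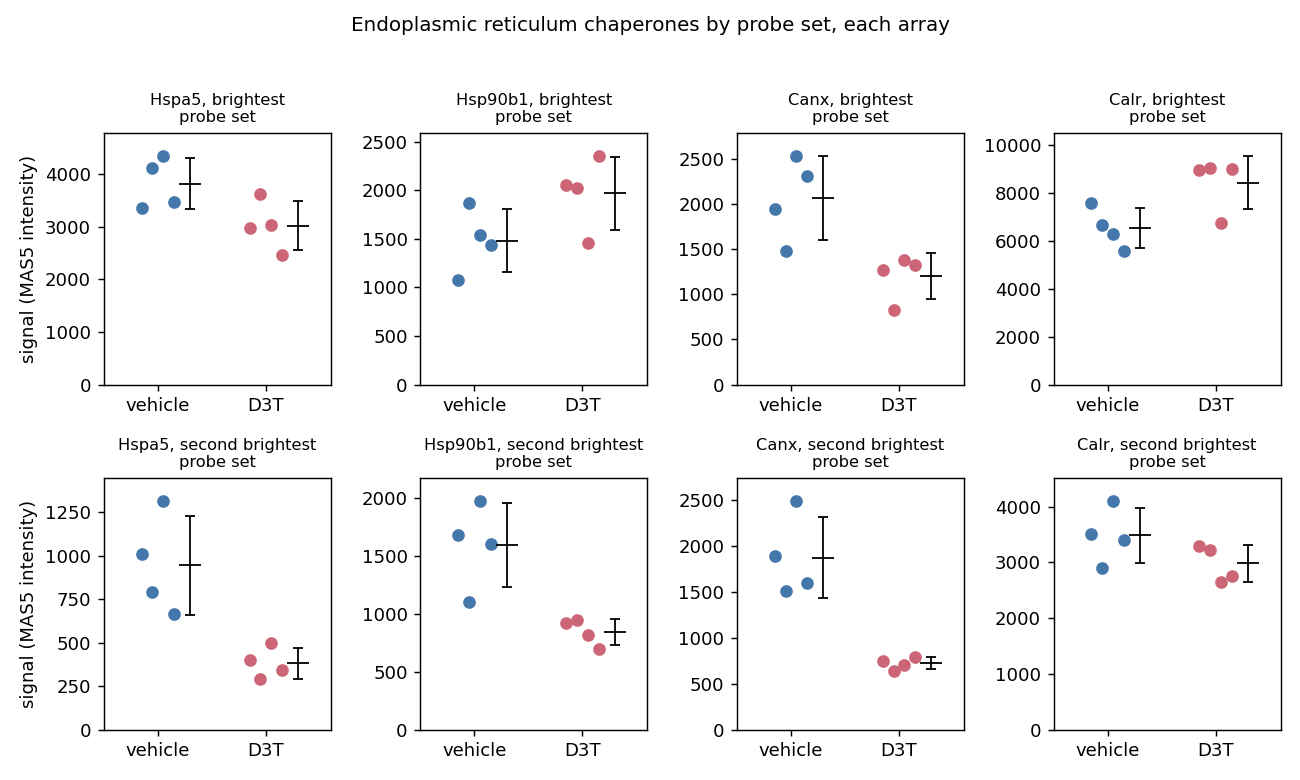
MAS5 signal (vertical axis, linear, from 0) of Hspa5, Hsp90b1, Canx and Calr on each of the 4 vehicle and 4 D3T arrays, with the brightest probe set above and the second brightest below. Bars give the mean and SD, and the lower row separates the groups for Hspa5, Hsp90b1 and Canx but not for Calr.

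These same 4 genes carry the endoplasmic reticulum stress element in their RefSeq promoters, which is why their sequences are shown. The element, a known binding site of the unfolded protein response factors, was searched on both strands as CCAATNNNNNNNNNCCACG from 250 bases before to 50 after the start of each gene on GRCr8. It was present in 22 of 33469 promoters (0.0657%) and in 4 of the 44 found for these genes, namely Calr, Canx, Hsp90b1 and Hspa5. Each window below is read 5' to 3' on the gene's strand and ends before the start, with the fixed letters of the match in capitals, and Hsp90b1 has a match on each strand.
Hspa5, chr3:38452943-38453015, + strand: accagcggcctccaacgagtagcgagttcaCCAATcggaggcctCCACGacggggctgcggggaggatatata
Hsp90b1, chr7:23012421-23012499, - strand: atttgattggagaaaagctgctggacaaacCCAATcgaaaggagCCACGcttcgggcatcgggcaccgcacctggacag
Hsp90b1, chr7:23012317-23012395, - strand: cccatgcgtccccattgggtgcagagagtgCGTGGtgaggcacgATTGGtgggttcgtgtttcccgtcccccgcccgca
Canx, chr10:35158039-35158107, - strand: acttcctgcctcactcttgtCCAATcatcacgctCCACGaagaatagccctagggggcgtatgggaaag
Calr, chr19:40213117-40213183, + strand: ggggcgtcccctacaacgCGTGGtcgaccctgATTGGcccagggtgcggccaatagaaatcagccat
The match lies 43 to 25 bases before the annotated start in Hspa5, 230 to 212 in Canx and 232 to 214 in Calr. Genes with the same element had brightest-probe log2 fold changes of -0.34, 0.42, -0.78 and 0.37 in that order of printing. By the second brightest probe set they were -1.29, -0.89, -1.35 and -0.22. The sign thus changed with the probe set for Hsp90b1 and Calr, while Hspa5 and Canx were negative by both of these. Nothing about the factors follows from a match of letters.

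Pdia4, a disulfide isomerase with more thioredoxin-like domains than its relatives, read 1800, 1558, 2393 and 1887 in vehicle and 1384, 1368, 1022 and 1032 after D3T. The groups did not overlap, D3T replicates 3 and 4 being lowest. It fell 1.59-fold (-0.67 ± 0.16, adjusted p = 0.0296), a call whose losses included the fits without vehicle replicate 1, 3 or 4 or D3T replicate 3 or 4 (adjusted p from 0.0623 to 0.0839) and with no filter (0.0802), no intensity trend (0.0673) or the actin covariate (0.245). No other isomerase passed. P4hb, the founding protein disulfide isomerase, was at 7901, 8558, 6933 and 6494 in vehicle and 8798, 8443, 9033 and 8173 after D3T (0.21 ± 0.11, adjusted p = 0.234), and its other probe sets stood at 0.039 and 0.24. Pdia3, which works on glycoproteins bound to calnexin and calreticulin, was at 1602, 1501, 2037 and 2310 and then 2651, 2500, 2417 and 2078 (0.39 ± 0.15, adjusted p = 0.126). D3T replicate 4 alone lay below a vehicle array, vehicle replicate 4. The other Pdia3 probe set had the opposite sign (-0.13) and did not pass. Pdia6 had a log2 fold change of 0.15 ± 0.10 and Pdia2, a pancreas-type isomerase, -0.47 ± 0.57. So 1 of the 5 isomerases tested passed, where 9.56% of all genes did.

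Dnajb9, a J protein of the reticulum that works with Hspa5 and is known as a target of the unfolded protein response, was at 255, 342, 319 and 265 in vehicle and 235, 108, 208 and 161 after D3T. All D3T arrays were below all vehicle arrays, yet the difference of -0.78 ± 0.25 missed the threshold (adjusted p = 0.0709). Ppib, the cyclophilin of the reticulum, was at -0.16 ± 0.11 (4108, 3522, 4411 and 4247 in vehicle, 3812, 3598, 3655 and 3455 after D3T, adjusted p = 0.331). Fkbp11, a prolyl isomerase of secretory cells, was at 0.41 ± 0.18 (adjusted p = 0.159). For Fkbp2 the brightest probe set gave 0.06, whereas the other fell 1.55-fold, from 1761, 1070, 1268 and 1526 to 818, 821, 899 and 1056 without overlap (adjusted p = 0.0396, passing in 10 of 21 alternative fits). The J protein gene Dnajc1 was at 0.67 ± 0.54 with a wide spread, 23.3, 89.4, 102 and 128 in vehicle.

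In the cytosol and nucleus, Hsph1 and Dnaja4 were called lower, 2 of 10 tested Hsp70, Hsp90, Hsp110 and J protein genes against 5.84% of all genes. None was called higher, against 3.71%. These calls were counted among the 10 genes tested. Their median was 0.12, with 6 positive and 4 negative values, and 5 had an unadjusted p under 0.05 (936 of 3150 over all genes). Hsph1, the Hsp110 that exchanges nucleotide on Hsp70, was at 536, 467, 644 and 708 in vehicle and 364, 284, 269 and 332 after D3T. The lowest vehicle array stood above the highest D3T array. The fall of 1.88-fold (-0.91 ± 0.18, adjusted p = 0.0118) stayed past the threshold when any of the 8 arrays was left out (at most 0.0417). Among its 22 alternative fits it was lost only with the actin covariate (-1.08, adjusted p = 0.134). A dimmer Hsph1 probe set was not tested. Dnaja4, a J protein partner of Hsp70, read 167, 158, 144 and 162 in vehicle and 90.4, 93.2, 76.1 and 80.5 after D3T, tight in each group and far apart. It fell 1.85-fold (adjusted p = 0.0296). The other Dnaja4 probe set stood at -0.85 ± 0.48 and did not pass. Losses of the Dnaja4 call included the fits without vehicle replicate 1, 3 or 4 or D3T replicate 1, 3 or 4 (adjusted p from 0.0558 to 0.0838), with the mean of its probe sets (0.104) and with the actin covariate (0.326).

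Hsph1 also has a match to the heat shock element, the site of heat shock factor, searched as GAANNTTCNNGAA on both strands and found in 267 of 33469 promoters (0.798%) and in 4 of 44 here, Dnaja1, Hspd1, Hspe1 and Hsph1. The Hsph1 match, 36 to 24 bases before the start, is shown because the call of Hsph1 was lost in only 1 of its 22 alternative fits, and capitals mark its TTC and GAA units.
Hsph1, chr12:10427302-10427367, + strand: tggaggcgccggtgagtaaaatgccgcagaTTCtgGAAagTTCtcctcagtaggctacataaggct
Dnaja1, a J protein of cytosolic Hsp70, has its match after the start, in sequence that is not printed. Its brightest probe set went from 3468, 3022, 3276 and 3346 to 2961, 2650, 2649 and 2692, with no overlap but a small difference of -0.26 ± 0.10 (adjusted p = 0.119). Its other probe set fell 1.61-fold, from 732, 713, 1196 and 686 to 459, 518, 561 and 473 (adjusted p = 0.0414), in 9 of 21 alternative fits, and the mean of both passed at -0.48 (adjusted p = 0.0302). Vehicle replicate 3 was the highest of that set.

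Hsp90ab1, the constitutive cytosolic Hsp90, read 9021, 8825, 8900 and 7049 in vehicle and 10498, 9413, 10031 and 10514 after D3T. All D3T arrays were higher, by only 0.27 ± 0.11 on the log2 scale (adjusted p = 0.14). Its 3 other probe sets were also positive, from 0.048 to 0.35, and none passed. Dnajc5, a J protein of secretory vesicles, had 352, 285, 457 and 437 in vehicle and 259, 303, 218 and 132 after D3T (-0.79 ± 0.27, adjusted p = 0.0822), D3T replicate 2 overlapping the vehicle arrays. Dnaja2 at 0.074 (its other probe sets at -0.60 and 0.34), Dnajb1 at 0.16 (the other at -0.19), Dnajb5 at 0.32, Dnajc17 at 0.17 and the testis-type Hsp70 gene Hspa1l at 0.40 did not pass. Hspa1a, the heat-inducible Hsp70, was too dim to test: its probe set read 7.69, 19.4, 98.7 and 119 in vehicle and 20.2, 16.5, 11.2 and 13.6 after D3T, and all 4 D3T arrays lay at or below the floor of 20.3.

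**Figure D3:**
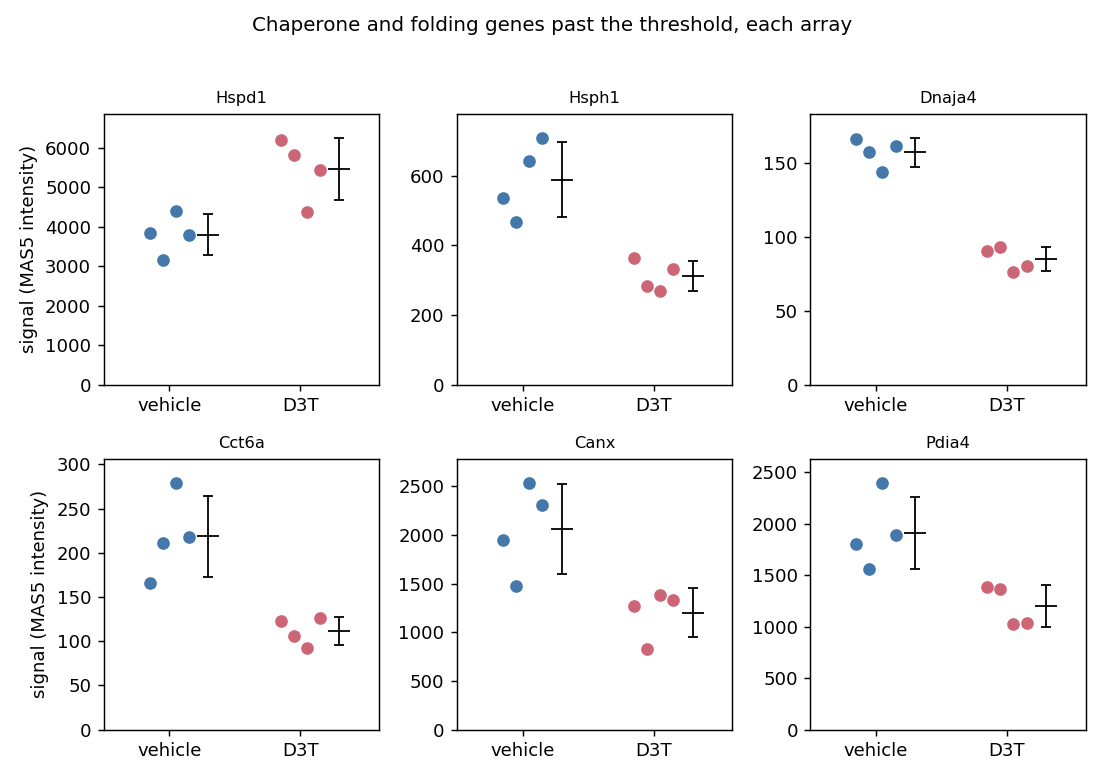
MAS5 signal (vertical axis, linear, from 0) of the 6 genes past the threshold on each of the 4 vehicle and 4 D3T arrays, brightest probe set of each, with mean and SD. Groups are apart for the 5 lower genes, and for Hspd1 the lowest D3T array (4374) lies just below the highest vehicle array (4408).

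Cct6a, a subunit of the cytosolic chaperonin, showed the largest fall of any member by its brightest probe set. It read 166, 211, 279 and 218 in vehicle and 123, 106, 92.8 and 126 after D3T, with no overlap. The fall was 1.93-fold (-0.95 ± 0.23, adjusted p = 0.0268). Its losses included the fits without vehicle replicate 3 or 4 or D3T replicate 1 or 3 (adjusted p from 0.0504 to 0.0836) and with the actin covariate (-1.36, adjusted p = 0.12). The only other subunit on the array by this rule, Cct3, was at 362, 280.2, 462 and 562 in vehicle and 404, 358, 391 and 358 after D3T (-0.10 ± 0.21, adjusted p = 0.781), and its sign turned without vehicle replicate 4 (0.064). Whether these subunits differed in their response was not tested.

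Small heat shock proteins, which hold unfolded proteins without using ATP, did not pass. By limma 0 of the 3 tested genes did, against 9.56% of all genes. Unadjusted, 2 had a p under 0.05, a level that 936 of all 3150 genes reached. Hspb2 was nearest: 245, 235, 245 and 308 in vehicle against 346, 346, 388 and 481 after D3T, wholly apart and 1.51-fold higher (0.59 ± 0.17, adjusted p = 0.0529). Robust variance (0.0499), array weights (0.0394), a test of the brightest 30% of probe sets (0.0322) and probe sets averaged by gene (0.0468) each brought Hspb2 past the threshold. Its other probe set was too dim to test, so in that last fit its own values were not averaged with any other. Hspb1, known as Hsp27, was at 673, 647, 685 and 618 and 1179, 843, 633 and 1105 (0.48 ± 0.19, adjusted p = 0.125). D3T replicates 1 and 4 were high and replicate 3 was within the vehicle range, and without it the gene passed (adjusted p = 0.0334). Its other 3 probe sets were negative, from -0.55 to -0.10, and their mean with the brightest one was -0.14. Hspb6 varied widely (0.22 ± 0.61).

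Among cytosolic and nuclear prolyl isomerases, which turn proline bonds, limma called 0 of 4 tested genes, against 9.56% of all genes. Only 1 had an unadjusted p under 0.05, as did 936 of 3150 over all genes. That gene was Fkbp1a, the target of the drug FK506. It read 1491, 2091, 1412 and 1352 in vehicle and 2033, 1886, 2420 and 2227 after D3T, with vehicle replicate 2 inside the D3T range (0.45 ± 0.15, adjusted p = 0.0873). It passed without vehicle replicate 2 (0.0192) and with array weights (0.0387). A second probe set rose 1.45-fold, from 799, 723, 893 and 676 to 1307, 1079, 904 and 1220 (adjusted p = 0.0471), in 8 of 20 alternative fits. The 2 others stood at 0.13 and -0.24. Fkbp4, an Hsp90 partner in steroid receptor complexes, had 501, 447, 616 and 876 and 778, 486, 776 and 1035 (0.33 ± 0.26, adjusted p = 0.41), with a mean over its probe sets of -0.036. The Hsp90 partner Ppid was at 0.027 and Ppil2 at 0.085.

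In mitochondria, Hspd1 was the only member gene called higher by its brightest probe set. Hspd1 (Hsp60) forms the folding ring of the matrix. It read 3843, 3164, 4408 and 3788 in vehicle and 6196, 5817, 4374 and 5444 after D3T, 1.43-fold higher (0.52 ± 0.14, adjusted p = 0.0412). D3T replicate 3 alone overlapped the vehicle arrays. The call held in 10 of 22 alternative fits and, of the 8 without 1 array, only without D3T replicate 3. Its losses included the fits without each of the other 7 arrays (adjusted p from 0.0534 to 0.109) and those with no filter (0.0929), no intensity trend (0.0933), the mean of its probe sets (0.35, adjusted p = 0.105) and the actin covariate (0.541). The other Hspd1 probe set was at 0.18 ± 0.17 and did not pass.

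Hspe1 (Hsp10), the lid of that ring, stood at 2534, 1822, 2510 and 2737 in vehicle and 3458, 2797, 3105 and 3021 after D3T. Its D3T arrays were all above its vehicle arrays, while 0.38 ± 0.14 did not pass (adjusted p = 0.109), nor did its second probe set at 0.24. The genes are neighbours on chromosome 9 of GRCr8, transcribed away from each other, and their promoter windows overlap. Part of the sequence between them is shown because both genes share it and both had positive values. It holds 2 overlapping matches to the heat shock element, with the TTC and GAA units in capitals, 65 to 48 bases before the start of Hspe1 and 242 to 225 before that of Hspd1. The 4 genes with this element went both ways by their brightest probe sets. Their log2 fold changes were 0.52 for Hspd1, 0.38 for Hspe1, -0.26 for Dnaja1 and -0.91 for Hsph1. Nothing about heat shock factor follows from a match of letters.
Hspe1, chr9:64084232-64084309, + strand: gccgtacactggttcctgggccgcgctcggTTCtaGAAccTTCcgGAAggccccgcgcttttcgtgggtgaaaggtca
Hspa9 (mortalin), the Hsp70 of the matrix, was at 456, 348, 785 and 706 and 442, 559, 457 and 309.7 (-0.33 ± 0.27, adjusted p = 0.435), and its second probe set had the opposite sign (0.16). Its J protein Dnaja3 was at 302, 210.0, 358 and 119.7 in vehicle and 352, 329, 435 and 413 after D3T. This was the largest positive difference among the 40 genes (0.74 ± 0.30), with a wide vehicle spread and no call (adjusted p = 0.138). Ppif, the matrix cyclophilin, was at 0.33 ± 0.19 (adjusted p = 0.267). Of the 5 mitochondrial genes 4 were positive, with a median of 0.38, where 1633 of all 3150 genes were positive, and 3 had an unadjusted p under 0.05, where 936 of 3150 did.

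The stress genes Ddit3 and Asns showed no call. Ddit3 (CHOP), a transcription factor of the late unfolded protein response, read 134, 144, 194 and 138 in vehicle and 159, 159.8, 152 and 135 after D3T. The difference was 0.0022 ± 0.21 (adjusted p = 0.995), with no settled sign: it was -0.022 with quantile normalization and -0.012 with median centring. Asns, the asparagine synthetase gene that ATF4 induces, read 117, 139.6, 131 and 113 and 128, 138, 121 and 195 (0.20 ± 0.23, adjusted p = 0.598), -0.25 with the actin covariate. D3T replicate 4 was the highest for Asns. By limma 0 of these 2 genes passed, against 9.56% of all genes. Unadjusted, 0 had a p under 0.05, which 936 of all 3150 genes had. The amino acid response element, TGATGNAA on either strand (3.98% of promoters), matched 1 of 44 member promoters, that of Hspa9. Sites beyond 250 bases before or 50 after the start were not searched, and 5 member genes had no promoter to search. The antioxidant response element, searched as TGACNNNGC and known for the factor encoded by Nfe2l2, is in 12.1% of promoters and in 4 of 44 here (9.09%), Cct6a, Dnajb1, Fkbp11 and Fkbp1b.

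Genes that work beside these members were counted from 3 further lists, of which 37 genes were tested, 4 were lower and 0 higher (10.8% called, against 9.56% of all genes), with a median of -0.11. Among 17 genes for entry into the secretory pathway, glycosylation and quality control, 3 were lower and 12 were negative, with a median of -0.23. Rpn1, a subunit of the enzyme that attaches glycans in the reticulum, was at 1535 ± 209.8 in vehicle and 914 ± 208 after D3T (SD, n = 4), 1.71-fold lower (adjusted p = 0.0271). Atp2a2, the calcium pump of the reticulum, fell 1.57-fold (adjusted p = 0.0195), and Sec62, of the translocation channel, 1.51-fold (adjusted p = 0.0471). Hyou1, a large Hsp70 of the reticulum, had -1.14 ± 0.39 and Rpn2 -0.37 ± 0.11, and neither passed (adjusted p = 0.0878 and 0.0539). Among 11 regulators of the unfolded protein and integrated stress responses, Cebpb, a liver transcription factor that can pair with CHOP, fell 1.5-fold (adjusted p = 0.0186). Eif2ak3 (PERK), a kinase that senses unfolded proteins, was at -0.66 (adjusted p = 0.102) and the CHOP target Trib3 at 0.81 (adjusted p = 0.157). Of 9 cochaperones and heat shock regulators limma called 0, with 0 at an unadjusted p under 0.05, and the heat shock factor gene Hsf1 was at 0.39 ± 0.20. Without vehicle replicate 1 or D3T replicate 1, limma called 0 of these 37 genes, with 10 and 8 at an unadjusted p under 0.05, without vehicle replicate 3 it called 1 and without D3T replicate 4 it called 2. The count was 2 with quantile normalization and 0 with the actin covariate, a fit that called only 35 of all 5244 probe sets.

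Probe sets of the same gene often read differently. Of the 73 member probe sets tested, 11 were lower and 2 higher, 17.8% against 10.7% of all probe sets (6.48% lower, 4.2% higher). The groups did not overlap in 17 of them, 13 with D3T below and 4 with D3T above, where 11.3% and 7.89% of all probe sets did so. In 19 genes with at least 2 tested probe sets, 8 had at least 1 call, 0 had all of them called, and 11 held both signs. The same counts were not made over all genes, so they do not set the members apart from the rest. The widest spans were those of Canx (-1.35 to 0.12), Hsp90b1 (-0.89 to 0.42) and Hspb1 (-0.55 to 0.48). As a comparison added after these values were seen, the log2 ratio of the brightest to the second brightest probe set was tested between groups for each of the 19 genes. Calr, Dnaja2, Fkbp2, Fkbp4, Hsp90b1 and Hspa5 reached p = 0.0286 in an exact two-sided permutation test, the smallest that 70 arrangements allow. After Benjamini-Hochberg adjustment over the 19, these were at 0.0905. The ratio shifted by 1.31 on the log2 scale for Hsp90b1, 0.95 for Hspa5 and 0.86 for Fkbp4. Which probe set follows the transcript was not tested, and 5 of the 6 genes past the threshold rest on a probe set whose name does not mark shared sequence, Canx being the exception.

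**Figure D4:**
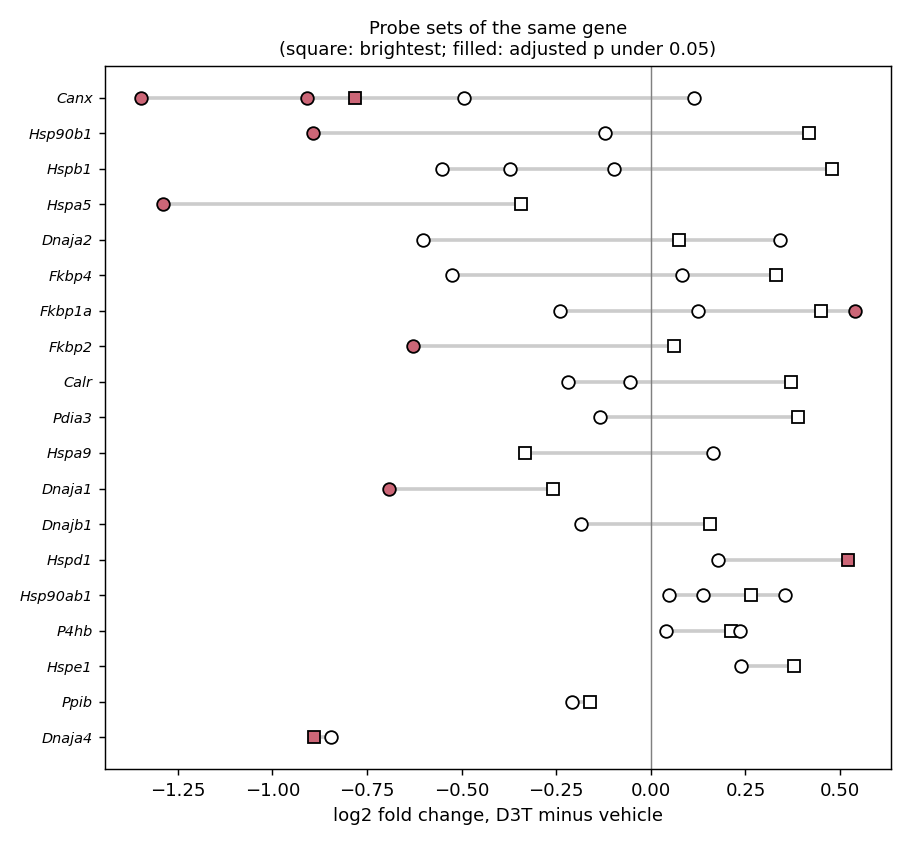
Log2 fold change (horizontal axis, D3T minus vehicle) of every tested probe set of the 19 genes with 2 or more, 1 row per gene, ordered by span. Squares mark the brightest probe set and filled symbols an adjusted p under 0.05, and the rows of Canx, Hsp90b1 and Hspb1 are the widest.

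The other 9 genes were too dim to test and are described by level only. Hspa1a is given above. Signals of Hspa2 ran from 3.39 to 25.1 in vehicle and 3.19 to 7.78 after D3T, and those of Fkbp1b from 4.79 to 10.9 and 5.89 to 20.2, with all 8 Fkbp1b arrays below the floor. Hspa13, a small Hsp70 of microsomes, read 11.3, 29.1, 105 and 43.2 in vehicle and 6.69, 8.68, 10.5 and 14.7 after D3T, where all 4 arrays were below the floor. Dnajb14 read 19.2, 13.1, 8.59 and 6.99 and 36.8, 37.5, 19.2 and 9.98, with all vehicle arrays below the floor. Hspa4, an Hsp110 relative, read 72.3, 24.3, 167 and 123 in vehicle and 50.6, 22.5, 24.4 and 103 after D3T at its brighter probe set by mean signal. Fkbp3 read 10.4, 32.4, 93.3 and 52.0 and 62.0, 57.3, 87.7 and 71.6. The splicing-linked cyclophilins Ppig and Ppil3 were dim, Ppig at 6.29 to 47.3 in vehicle and 3.79 to 40.4 after D3T at the brighter probe set, and Ppil3 at 31.4 to 47.5 and 34.5 to 44.5.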

How the data were processed

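Liver RNA of 8 rats was measured on 8 arrays, 4 per group, with groups and replicate numbers from the sample titles. The deposited values are linear signal intensities made with MAS5, per the submitters' processing notes. Its version, scaling target and filters were not given in the sources used here. Arrays were set to a common 2% trimmed mean of 500, signals under the 20th percentile (20.3) were replaced by it as a floor, and values were put on the log2 scale. The 60% of 8740 non-control probe sets with the highest mean were tested (5244) with limma 3.58.1 in R 4.3.3, with an intensity trend and Benjamini-Hochberg adjustment at 0.05. Folds are ratios of geometric means of floored signals and understate changes near the floor. Means and SDs are on the linear scale. Nothing in the labels names a batch.

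Names came from the platform's annotation, with 7006 probe sets matched to 1 symbol, 308 to several and 1426 to none. All 49 member genes were found by identifier in the RefSeq table of GRCr8, and 44 had a promoter there. Members, lists and tests were chosen with earlier results of these data known. Dnajc17 was placed in its compartment after the files were read. Named genes were those past the threshold, the brightest and most changed of each compartment, a list of common chaperones and up to 5 genes per further list. Dim members are given by level. The comparison of probe sets within a gene was added after the data were seen. The same replicate number did not pair the arrays, since correlations of deviations were 0.06, -0.09, 0.01 and -0.20. Alternatives were scaling, floor, filter, variance model, array weights, the replicate block, the actin covariate, shared probe sets, the mean of probe sets, leaving out each array and, added after the data were seen, choosing the brightest probe set in 1 group alone. The fit was tested on simulated data. The p-values measure the spread between these rats.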

Additional observations from a re-analysis of the deposited data

Results flagged for a closer look

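A single array stood apart from the other 3 of its group in 6 of 80 groups of 4 (7.5%), by the gap to its nearest neighbour over the range of log2 signals, where chance gives about 1 in 20. For Calr, D3T replicate 3 was low at 6743, against 8933 to 9015 on the others. For Canx, D3T replicate 2 was low at 827, against 1268 to 1378. For Dnaja1, D3T replicate 1 was high at 2961, against 2649 to 2692. Vehicle replicate 1 was high for Fkbp2 at 1396, against 1122 to 1149. Vehicle replicate 4 was low for Hsp90ab1 at 7049, against 8825 to 9021, and high for Hspb2 at 308, against 235 to 245.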

How the results depend on the processing

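No fold change of a called gene changed sign in any alternative that tested it. The count of changed member genes, 6 of 40, was 3 with no filter, 3 with no intensity trend, 2 with the replicate block and 0 with the actin covariate, and ran from 1 to 6 in the fits without 1 array. It was 5 to 9 in the others. The count over all probe sets, 560, was 309 with no filter, 333 with no intensity trend, 290 with the replicate block, 35 with the actin covariate and 262 without probe sets marked as shared, and 240 to 695 without 1 array. The 4 calls in the further lists became 2 with quantile normalization, 2 with no intensity trend, 2 without probe sets marked as shared and 0 with the actin covariate, and 0 to 5 without 1 array. Without the filter more probe sets are adjusted for, and the shared-name setting tests fewer; the cause of the other changes was not tested.

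With the replicate block the calls of Cct6a (adjusted p = 0.0837), Dnaja4 (0.0932), Hspd1 (0.102), Pdia4 (0.0824) and Sec62 (0.0897) were lost, and Canx and Hsph1 passed. The arrays share only a number, and 1 of 4 vehicle arrays correlated best with the D3T array of its own number. Uncalled values that changed sign were Asns (-0.25) and Hsp90b1 (-0.049) with the actin covariate and Hsp90b1 (-0.20), Fkbp4 (-0.036) and Hspb1 (-0.14) with the mean of probe sets. With the brightest probe set by vehicle arrays alone, Fkbp4 (-0.52), Hspb1 (-0.10) and Hsp90b1 (-0.89, then called lower) changed sign, and by D3T arrays alone Hspa9 did (0.16) and Atp2a2 lost its call (adjusted p = 0.135). Ddit3 was -0.022 with quantile normalization, -0.012 with median centring, -0.021 with array weights, -0.046 with the actin covariate and -0.054 to 0.12 without 1 array, and Cct3 was -0.27 to 0.064 without 1 array. No scaling moved the median of all fold changes by over 0.05. Dim probe sets had the widest errors, such as 0.61 for Hspb6 and 0.57 for Pdia2.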
